A study of Mus musculus with 9 samples.

Results

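The hepatic carrier proteins described here are albumin (Alb), alpha-fetoprotein (Afp), afamin (Afm), the vitamin D-binding protein (Gc), transthyretin (Ttr), retinol-binding protein 4 (Rbp4) and the alpha-1-microglobulin/bikunin precursor (Ambp). They were taken by gene symbol, and each symbol matched 1 gene, giving 7 of the 51912 genes listed. Their mRNA levels were compared in livers of 9 fasted mice treated with antisense oligonucleotides (ASOs), short synthetic DNA-like strands that direct the cleavage of a matching mRNA. Of these livers, 5 came from mice given an ASO against apoC-III, an inhibitor of triglyceride clearance made in hepatocytes, and 4 from mice given a control ASO, each at 50 mg/kg/week for 8 weeks. All 9 mice were Apoe-/-Ndst1 f/f Alb-Cre+ on the C57Bl/6 background: apoE was absent from the whole body in both groups, and Ndst1, an enzyme of heparan sulfate synthesis, was deleted in hepatocytes of both groups by a Cre recombinase under the albumin promoter. Age and sex were not given in the sources used here, and the diet was not named beside the RNA sequencing. The comparison addressed whether lowering apoC-III was accompanied by a change in the mRNAs of the plasma carriers, and it served as a reference for the hepatocyte RNA in each liver.

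Hepatocytes secrete these proteins into plasma, where they carry ligands that dissolve poorly in water or are lost easily. Albumin is the most abundant plasma protein and binds fatty acids, bilirubin and hormones. Afp is its fetal counterpart and is silenced in hepatocytes after birth, Afm binds vitamin E, and Gc binds vitamin D metabolites and actin released from damaged cells. Rbp4 leaves the liver loaded with retinol in a complex with transthyretin, which also carries thyroxine. Ambp encodes 1 precursor that is cut into alpha-1-microglobulin, a heme- and radical-binding lipocalin, and bikunin, the protease inhibitor of the inter-alpha-inhibitor complex.

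The genes of the albumin family lie together on chromosome 5. In GENCODE M21 (GRCm38), Alb (ENSMUSG00000029368) spans chr5:90460897-90476602 on the plus strand, Afp (ENSMUSG00000054932) starts 14.1 kb after its end at chr5:90490737-90508907, and Afm (ENSMUSG00000029369) starts 10.02 kb after Afp at chr5:90518932-90553543, both also on the plus strand. Gc (ENSMUSG00000035540) lies at chr5:89417522-89457898 on the minus strand, 1003 kb before Alb. The remaining genes are elsewhere, Rbp4 (ENSMUSG00000024990) at chr19:38116629-38125281 and Ambp (ENSMUSG00000028356) at chr4:63143275-63154799, both on the minus strand, and Ttr (ENSMUSG00000061808) on another chromosome. All 7 are annotated as protein-coding.

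The sequences directly before the start sites of the 4 albumin-family genes are shown because the promoter of 1 of them also drives the Cre of these mice, and because the levels of the 4 mRNAs differed by orders of magnitude. Each is the 250 bases upstream of the RefSeq start on GRCm38.p6, at chr5:90460620-90460869 (plus strand) for Alb, chr5:90490464-90490713 (plus) for Afp, chr5:90518699-90518948 (plus) for Afm and chr5:89457899-89458148 (minus) for Gc. These starts are not all the GENCODE starts given above. The windows of Alb and Afp end short of the GENCODE start, so the bases between were not searched. That of Afm ends inside the GENCODE gene, and that of Gc ends directly before it. Windows were matched by symbol for 6 of the 7 members. None was sought for Ttr, whose chromosome was left out of the windows used. Capitals mark matches on either strand to GTTAAT, the core of an HNF1 site, to the TATA-box letters TATAAA, to the box named CCAAT and to TTATGTAA, a site type bound by C/EBP and D-box factors. No marked matches overlap.
Alb: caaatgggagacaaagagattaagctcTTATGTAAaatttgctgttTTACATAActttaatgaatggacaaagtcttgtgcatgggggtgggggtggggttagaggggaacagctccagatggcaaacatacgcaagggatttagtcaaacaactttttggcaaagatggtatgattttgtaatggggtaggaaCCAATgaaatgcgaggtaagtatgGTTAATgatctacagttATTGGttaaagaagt
Afp: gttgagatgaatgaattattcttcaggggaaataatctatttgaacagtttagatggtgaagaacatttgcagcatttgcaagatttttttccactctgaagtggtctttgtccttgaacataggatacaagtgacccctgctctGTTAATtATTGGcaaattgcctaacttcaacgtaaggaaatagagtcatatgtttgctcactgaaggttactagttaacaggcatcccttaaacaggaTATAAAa
Afm: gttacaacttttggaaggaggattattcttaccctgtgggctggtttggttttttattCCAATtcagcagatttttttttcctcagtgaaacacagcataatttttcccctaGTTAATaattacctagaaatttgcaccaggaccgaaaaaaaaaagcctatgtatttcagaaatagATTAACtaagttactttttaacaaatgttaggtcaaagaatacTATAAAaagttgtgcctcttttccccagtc
Gc: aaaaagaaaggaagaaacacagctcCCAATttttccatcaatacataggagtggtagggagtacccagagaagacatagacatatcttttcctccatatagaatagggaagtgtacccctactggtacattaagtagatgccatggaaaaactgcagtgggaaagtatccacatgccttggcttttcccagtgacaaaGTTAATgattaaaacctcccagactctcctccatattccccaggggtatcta

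GTTAAT was present in all 4 of these windows, and in 6.43% of the 32851 mouse windows used, which had the same length. It lay 32 to 27 bases before the RefSeq start in Alb, 105 to 100 in Afp and 52 to 47 in Gc. In Afm it occurred at 138 to 133 and again, on the other strand, at 73 to 68. CCAAT was found in all 4 (33.8% of all windows), at 2 places in Alb. TATAAA was found in Afp and Afm (12.4% of all windows), and TTATGTAA in Alb alone among the 6 members with a window, at 2 places (0.819% of all windows). Neither window of Rbp4 nor the window of Ambp held GTTAAT. The Ambp window (chr4:63154173-63154422) and the Rbp4 window at chr19:38124812-38125061 lie inside the GENCODE genes rather than before them. Their lack of GTTAAT therefore does not describe the sequence before the GENCODE starts. These matches describe letters only and do not show binding.

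Depth could not be read from the deposited values, which are TPM (reads per gene divided by gene length and scaled to the same total in every library). The 7SL RNA genes Rn7s1 and Rn7s2 took 64.0 to 83.6% of all TPM, and nuclear protein-coding genes took 1.94 to 8.64%. Protein-coding TPM was therefore put on a scale of its own in each liver (scaled TPM: a sum of 1000000 over these genes, divided by a factor that aligns the typical gene between livers), on which 11968 genes were tested. Control ASO liver 4 stood apart, with the lowest protein-coding share, the fewest genes above 0 (17992, against 18344 to 20928 in the other livers) and a scaling factor of 0.496 against 0.930 to 1.44. The labels describe separate mice, so the p-values below measure the spread between these 9 livers. Apoc3, the target of the ASO, was at 379, 431, 334, 622 and 485 scaled TPM in apoC-III ASO livers 1 to 5, and at 3370, 3169, 3479 and 4291 in control ASO livers 1 to 4. The groups were far apart, with a log2 fold change of -3.01 (SE 0.23, limma adjusted p = 0.000388). Deposited TPM of Apoc3 was 27.2, 28.4, 15.8, 32.2 and 14.0 against 271, 200, 184 and 41.4 (two-sided exact permutation p = 0.0159, which is the lower limit for 5 livers against 4). Over all genes, 0 were called higher and 2 lower at thresholds of 0.05 for the adjusted p and 1.5 for the fold change (0.0167% of the genes tested), Apoc3 and Anpep, a membrane peptidase that lies outside the naming rule and was named after its values were seen. Of 21 alternative fits Apoc3 was called in 20 and Anpep in 8, and deposited TPM gave 5 genes called higher and 6 lower. At an unadjusted p under 0.05, 667 genes passed (5.57%), 359 higher and 308 lower.

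The carriers covered a wide range of levels in these livers, and TPM, being per length, allows them to be ordered. By mean scaled TPM over the 9 livers, Alb ranked 6 of 21857 protein-coding genes, Gc 17, Ttr 46, Rbp4 51, Ambp 57, Afm 597 and Afp 13677. The genes that led the ranking were Mup14, Mup9, Mup7 and Mup1. These are major urinary proteins whose near-identical copies share reads, so that the split between them is uncertain. Gm21320 held rank 5 by its mean but ran from rank 2 to rank 15099 between livers. It took 3.19% of protein-coding TPM on average. Alb exceeded Gc in 9 of 9 livers, by 4.37-fold as a geometric mean (range 3.09 to 8.78), and Gc exceeded Ttr in 9 of 9 livers by 2.69-fold (range 1.42 to 3.71). Ttr, Rbp4 and Ambp could not be put in order: Ttr was above Rbp4 in 4 of 9 livers and above Ambp in 6 of 9, and Rbp4 was above Ambp in 6 of 9. Ambp in turn exceeded Afm in 9 of 9 livers, by 11.4-fold (range 7.66 to 19.9). Afp was listed at 0 in 3 livers, and in the other 6 Alb was 26346 to 135349 times as high as Afp. The neighbours Alb and Afp thus stood at the top and the bottom of the members' range, with Afm the lowest but for Afp.

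**Figure D1:**
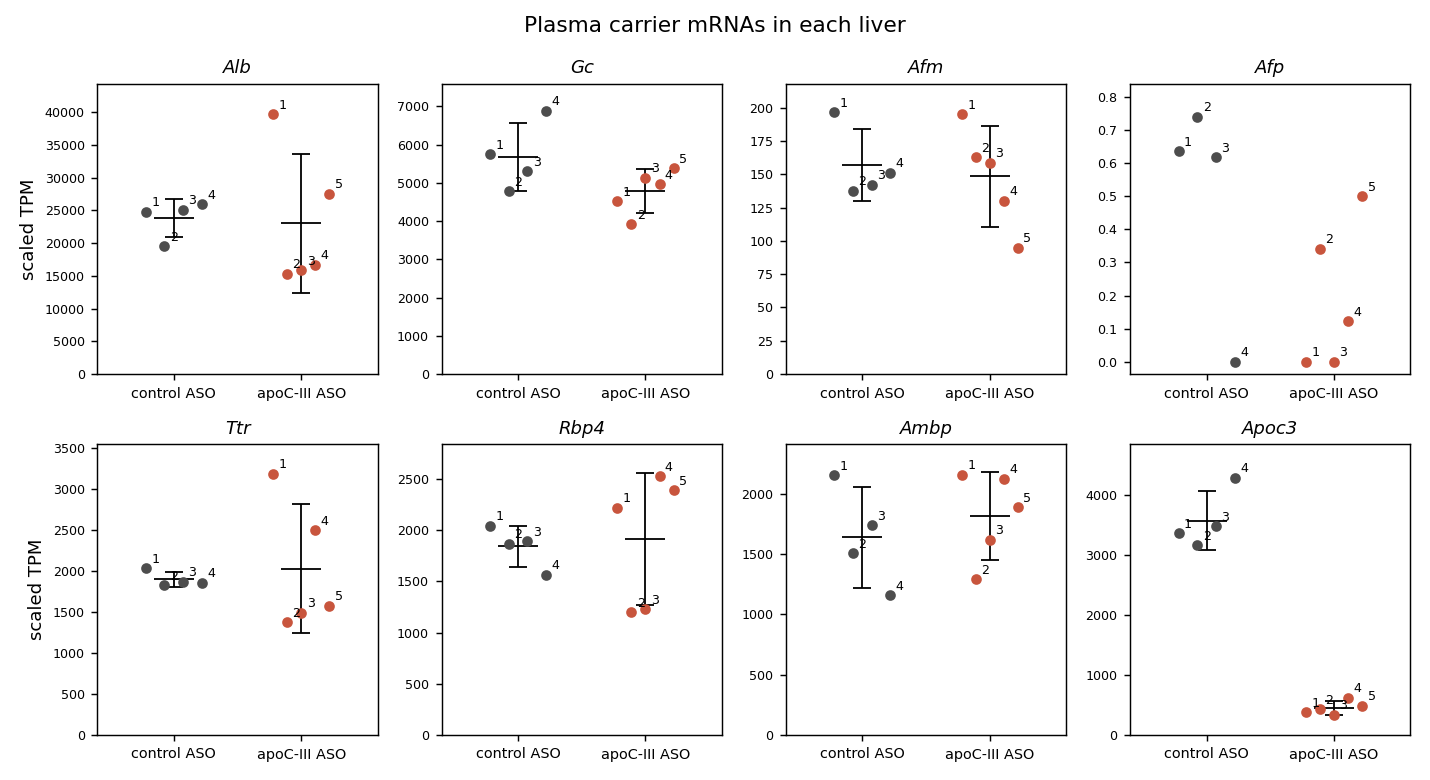
Scaled TPM (vertical axis, linear) of the 7 carriers and of Apoc3 in each control ASO (grey, n = 4) and apoC-III ASO (red, n = 5) liver; points are livers with their replicate number, bars the mean ± SD, left out for Afp because it is listed at 0 in 3 livers. The groups overlap for all 7 carriers, while for Apoc3 the apoC-III ASO livers reach at most 622 scaled TPM and the control livers at least 3169.

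None of the carriers was called. Of the 7 members, 6 passed the filter of a mean of at least 1 scaled TPM, and Afp did not. Among those 6, 0 were called and 0 reached an unadjusted p under 0.05, and the groups overlapped for each of the 7 (1.83% of the genes tested had groups that did not overlap). The log2 fold change was above 0 for 2 members and below 0 for 4, but above 0 for all 6 on deposited TPM, where the median of all genes was 0.11 rather than -0.00127. The median of the 6 members was -0.06. The adjusted p-values lay between 0.941 and 0.998. On scaled TPM, the 95% interval that reached farthest from 0 was that of Alb, down to a 1.86-fold decrease. Intervals were wider on deposited TPM, where the SE of the log2 fold change was 0.55 for Alb and 0.73 for Ambp. On scaled TPM these SEs were 0.34 and 0.26.

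In the albumin family, Alb was measured at 39704, 15301, 15834, 16694 and 27564 scaled TPM in apoC-III ASO livers 1 to 5, and at 24827, 19505, 25128 and 25963 in control ASO livers 1 to 4. ApoC-III ASO livers 2, 3 and 4 lay below all controls and livers 1 and 5 above all of them, so the groups interleaved. The means were 23019 ± 10609 (SD, n = 5) and 23856 ± 2940 (SD, n = 4), and the log2 fold change was -0.15 (SE 0.34, 95% interval -0.89 to 0.59, limma adjusted p = 0.983). Leaving out 1 liver moved this value between -0.37 (without apoC-III ASO liver 1) and -0.0357 (without apoC-III ASO liver 2). Because these are whole livers, fewer cells of a type and less RNA per cell cannot be told apart, here and in all values below.

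Gc was at 4520, 3913, 5130, 4969 and 5377 scaled TPM in the apoC-III ASO livers and at 5741, 4776, 5299 and 6882 in the controls. The controls reached higher, but 3 of the 5 apoC-III ASO livers lay above the lowest control. The log2 fold change of Gc was -0.24 (SE 0.23, 95% interval -0.74 to 0.25, limma adjusted p = 0.941), the smallest p among the members, at rank 3890 of all genes tested. The 2 highest Gc levels were in control ASO livers 4 and 1, and without control ASO liver 4 the log2 fold change was -0.14.

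Afm was lower than Gc and Alb in all 9 livers, at 195, 163, 159, 130 and 94.98 scaled TPM with the apoC-III ASO and at 197, 138, 142 and 151 with the control ASO. The highest value of each group was nearly the same and the lowest was in apoC-III ASO liver 5. The log2 fold change was -0.11 (SE 0.24, 95% interval -0.63 to 0.42, limma adjusted p = 0.984).

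Afp, the fetal member, was close to the lower limit of the table. It was listed at 0, 0.342, 0, 0.123 and 0.5004 scaled TPM in the apoC-III ASO livers and at 0.636, 0.740, 0.617 and 0 in the controls. It was above 0 in 3 of 5 and 3 of 4 livers, and the 3 controls above 0 were higher than every apoC-III ASO liver. No fold change is given, since a value of 0 in TPM can also be an estimate that failed and the filter left the gene untested. Other genes of the fetal liver program were low as well: of 7 fixed in a list, 2 passed the filter, and H19, the fetal noncoding RNA of the Igf2 locus, is listed at 0 in 7 of 9 livers and at most 0.0223 deposited TPM. The surface protein Cd24a was at 0, 0, 0, 1.12 and 1.51 scaled TPM against 1.28, 1.59, 1.64 and 4.02 in the controls. Its log2 fold change was -1.09 (SE 0.39, limma adjusted p = 0.860). With values at 0 this estimate depended on the number added before the log, being -1.55 with 0.5 and -2.81 with 0.1 instead of 1. Igf2, a fetal growth factor, was at 0.226 to 1.07 against 0.476, 0.480, 0.569 and 11.1 (log2 fold change -0.78, SE 0.57, adjusted p = 0.908). Control ASO liver 4 was the highest of the 9 livers for both, and listed at 0 for Afp.

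Among the carriers of thyroxine and retinol, Ttr was at 3182, 1376, 1491, 2496 and 1577 scaled TPM with the apoC-III ASO and at 2034, 1827, 1867 and 1855 with the control ASO. The controls lay within a narrow band, with 3 apoC-III ASO livers below it and 2 above. The log2 fold change was 0.02 (SE 0.28, 95% interval -0.60 to 0.63, limma adjusted p = 0.998). Rbp4 was at 2221, 1199, 1230, 2525 and 2391 against 2044, 1868, 1892 and 1565. Again the apoC-III ASO livers fell on both sides of the controls, livers 2 and 3 below and livers 1, 4 and 5 above all of them. The log2 fold change of Rbp4 was -0.01 (SE 0.29, 95% interval -0.64 to 0.61, limma adjusted p = 0.998).

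Ambp was at 2157, 1293, 1618, 2126 and 1887 scaled TPM in the apoC-III ASO livers and at 2154, 1507, 1741 and 1158 in the controls. The ranges nearly coincided at the top, and the lowest value was in control ASO liver 4. The log2 fold change was 0.16 (SE 0.26, 95% interval -0.40 to 0.72, limma adjusted p = 0.966), and without control ASO liver 4 it was 0.00536.

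**Figure D2:**
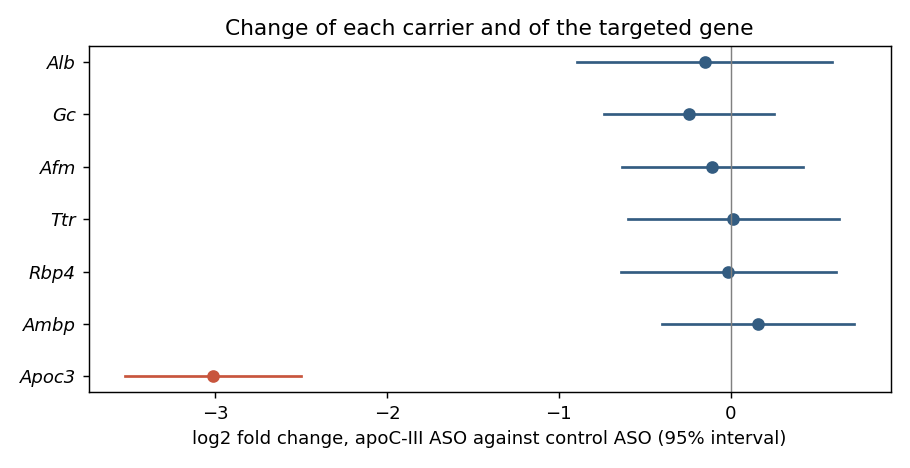
Log2 fold change (horizontal axis, apoC-III ASO against control ASO, log2 of scaled TPM + 1) of the 6 tested carriers and of Apoc3; points are estimates and lines 95% intervals from limma over 9 livers. All 6 carrier intervals include 0, and the interval of Apoc3 runs from -3.52 to -2.50.

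The spread between livers was wider with the apoC-III ASO for 4 of the 6 tested members. On the log2 scale the SD of Ttr was 0.53 in the apoC-III ASO livers and 0.07 in the controls, that of Alb 0.61 and 0.19, that of Rbp4 0.53 and 0.16 and that of Afm 0.39 and 0.23. For Gc (0.18 and 0.22) and Ambp (0.31 and 0.38) the controls spread more. Gc varied little, with a pooled SD of 0.20, and 4.09% of the 928 genes with a mean of at least 100 scaled TPM had a smaller one. Those genes were not matched to Gc in level. Over those 928 genes the median pooled SD was 0.43. Their median SD was 0.41 in the apoC-III ASO livers and 0.38 in the controls, so the groups spread about alike over these genes. Whether the spread of a single gene differed between the groups was not tested.

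Ratios within a liver do not depend on how the library was scaled. Gc amounted to 11.4, 25.6, 32.4, 29.8 and 19.5% of Alb TPM in apoC-III ASO livers 1 to 5 and to 23.1, 24.5, 21.1 and 26.5% in control ASO livers 1 to 4. The apoC-III ASO livers lay on both sides of the controls (exact two-sided permutation test of the log2 ratios, p = 0.889). Ttr was at 8.01, 8.99, 9.42, 14.95 and 5.72% of Alb against 8.19, 9.37, 7.43 and 7.14% (exact permutation p = 0.619). Rbp4 was at 5.59, 7.83, 7.77, 15.1 and 8.67% against 8.23, 9.58, 7.53 and 6.03% (exact permutation p = 0.730). ApoC-III ASO liver 4 had the highest ratio of Ttr, of Rbp4 and also of Ambp. In that liver Alb made up its lowest part of the summed members, 57.7%. Ambp was at 5.43, 8.45, 10.2, 12.7 and 6.85% against 8.68, 7.73, 6.93 and 4.46% (exact permutation p = 0.333), and Afm at 0.492, 1.06, 1.002, 0.780 and 0.345% against 0.793, 0.706, 0.566 and 0.582% (exact permutation p = 0.921). After adjustment over the 5 ratios each p of the exact permutation tests was 0.921, and Afp, listed at 0 in 3 livers, was given no ratio. Measured in the same way, Apoc3 was at 0.954 to 3.73% of Alb with the apoC-III ASO and at 13.6 to 16.5% with the control ASO (exact permutation p = 0.0159).

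**Figure D3:**
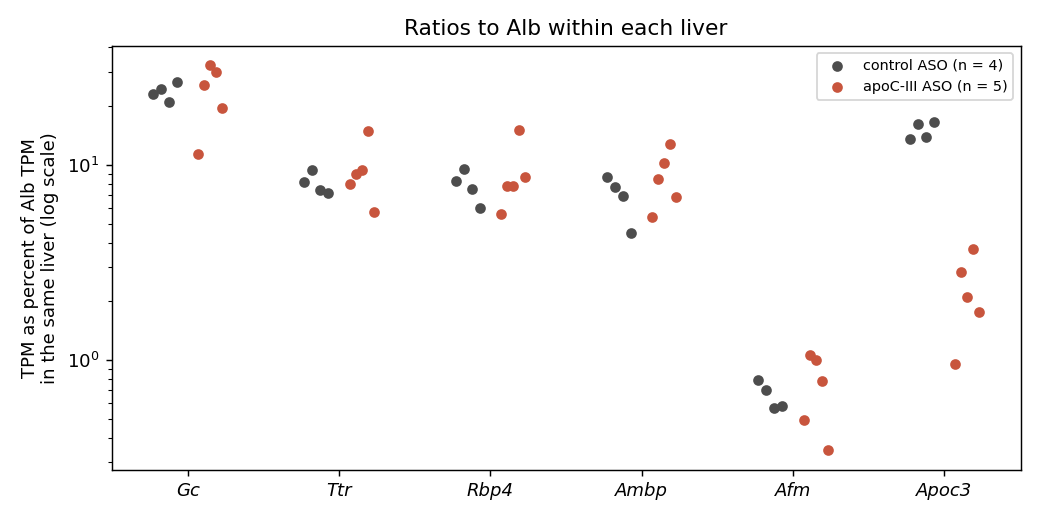
TPM of 5 carriers and of Apoc3 as percent of the Alb TPM of the same liver (vertical axis, log scale), for control ASO (grey, n = 4) and apoC-III ASO (red, n = 5) livers; each point is 1 liver. The groups overlap for the 5 carriers and do not overlap for Apoc3.

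The carriers together made up 7.04, 3.34, 3.02, 2.93 and 3.70% of protein-coding TPM in the apoC-III ASO livers and 3.44, 3.44, 3.37 and 1.87% in the controls. ApoC-III ASO liver 1 was the highest and control ASO liver 4 the lowest of the 9, and the rest lay between 2.93 and 3.70%. The means were 4.005 ± 1.72% (SD, n = 5) and 3.03 ± 0.777% (SD, n = 4, exact two-sided permutation test, p = 0.460). On this scale the median log2 fold change of all genes was 0.41, and of all deposited TPM the carriers made up 0.182% and 0.178% as group means (exact permutation p = 0.921). Without control ASO liver 4 the difference in means was 0.587 percentage points (exact permutation p = 1), and without apoC-III ASO liver 1 it was 0.217 (exact permutation p = 0.829). Alb contributed 57.7 to 76.4% of the sum, and the other 6 members alone gave 1.25 ± 0.236% (n = 5) against 0.977 ± 0.274% (n = 4, exact permutation p = 0.127).

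As a reference for hepatocyte RNA, Alb was set against 15 further hepatocyte genes. Its log2 level over their mean was 3.35 to 4.79 in the apoC-III ASO livers and 3.78 to 3.96 in the controls, with a difference in means of 0.05 (exact two-sided permutation test, p = 0.937). The 15 genes themselves were all tested and 0 were called, 2 having log2 fold changes above 0 and 13 below, with a median of -0.24 (0.08 on deposited TPM and 0.24 with the protein-coding share alone, where the median of all genes was 0.11 and 0.41). Their summed level was 22378 to 32844 scaled TPM in the apoC-III ASO livers and 32108 to 35059 in the controls. The genes with the smallest p among them were Apoa1, the main protein of HDL (log2 fold change -0.34, SE 0.23, limma adjusted p = 0.902), and Cps1, the entry enzyme of the urea cycle (-0.30, SE 0.24, adjusted p = 0.918).

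The members moved only partly together from liver to liver. Among the 15 pairs of the 6 tested members, Pearson's r of log2(scaled TPM + 1) over the 9 livers ran from -0.31 (Afm and Rbp4) to 0.74 (Rbp4 and Ambp), and 12 were above 0. For Rbp4 and Ambp, r was 0.74 (exact permutation p = 0.0320, adjusted over the 15 pairs 0.240) and Spearman's rho 0.78 (exact permutation p = 0.0172, adjusted 0.216). Their r was 0.85 without the 2 livers farthest from the median of Rbp4 and 0.77 within groups. For Ttr and Rbp4, the partners of the retinol complex, r was 0.67 (exact permutation p = 0.0288, adjusted 0.240) and rho 0.70 (exact permutation p = 0.0433, adjusted 0.216), with r at 0.60 without the 2 farthest livers and 0.67 within groups. For Alb and Ttr, r was 0.60 (exact permutation p = 0.1001, adjusted 0.375) and rho 0.52 (exact permutation p = 0.162, adjusted 0.485). Their r was -0.14 without the 2 livers farthest from the median of Alb and 0.61 within groups. Leaving out extremes narrows the range of Alb, so the value of -0.14 cannot show that the relation rested on those livers. For Ttr and Ambp, r was 0.62 (exact permutation p = 0.0573, adjusted 0.286) and rho 0.72 (exact permutation p = 0.0369, adjusted 0.216). Their r was 0.38 without the 2 farthest livers and 0.64 within groups. After adjustment 0 of the 15 pairs passed 0.05. On deposited TPM, whose level in each liver moves with the protein-coding share, r of the 15 pairs was 0.844 to 0.977.

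**Figure D4:**
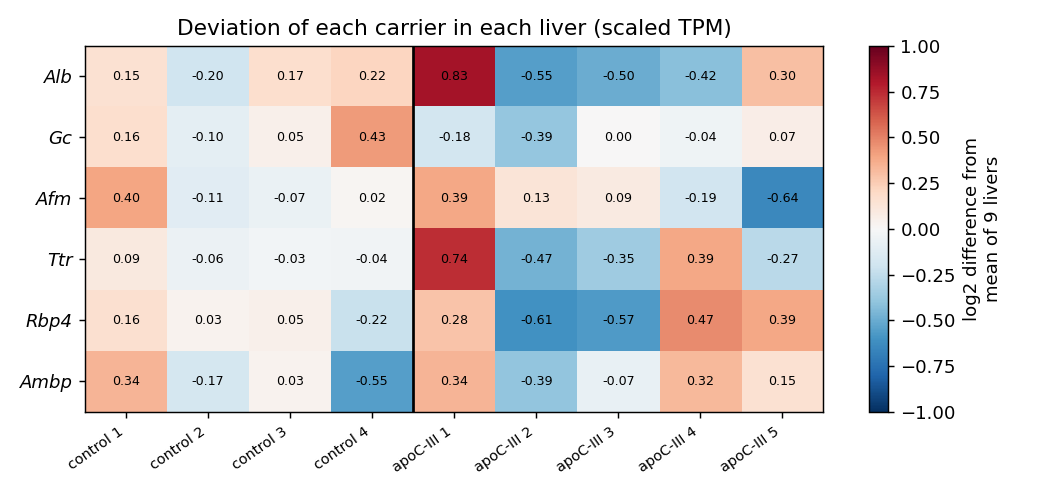
Log2 difference of each tested carrier (rows) in each liver (columns, control ASO left and apoC-III ASO right of the line) from its mean over the 9 livers, from scaled TPM; red is above and blue below the mean, and cells print the value. ApoC-III ASO liver 1 was above the mean for 5 of 6 carriers and liver 2 below it for 5 of 6, and most control values stay within 0.25.

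The genes most like each member over the 9 livers were found among all genes tested, by Pearson's r of log2 levels, and are given as a description, since the best of so many correlations is high by selection and the livers share their scaling. For Alb they were the major urinary protein Mup13 (r = 0.92, rho = 0.95), Tmem8b (0.91, 0.88) and Cphx3 (0.89, 0.78), the last pair with means below 1.5 scaled TPM. Gc was most like Clu, the secreted chaperone clusterin (0.97, 0.95), Mup12 (0.95, 0.97) and Gstm5 (0.94, 0.82). Afm followed Gsap (0.94, 0.97) and Rnf111 (0.94, 0.87), and Ttr followed the proteasome subunit Psmb1 (0.97, 0.92), Gm28778 (0.95, 0.92) and Cth (0.93, 0.90), an enzyme of cysteine synthesis. Rbp4 was nearest to Ndufa11, a subunit of respiratory complex I (0.97, 0.93), Myl12a (0.95, 0.88) and Macrod1 (0.95, 0.85). Ambp was nearest to Haus5 (0.94, 0.97), the plasma lipocalin Orm1 (0.94, 0.93) and Mrpl35 (0.93, 0.90). No member was among the 3 genes nearest to another member.

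Other plasma carriers were measured beside the members. Of 17 in the list, 15 were tested and 0 were called, 5 with log2 fold changes above 0 and 10 below (median -0.15, but 0.14 on deposited TPM), and 3 reached an unadjusted p under 0.05, all lower (5.57% of all genes reached it). Orm3, an acid glycoprotein of the lipocalin family, was at 4.98, 4.23, 5.08, 4.01 and 4.54 scaled TPM against 5.50, 10.4, 15.6 and 8.92, without overlap of the groups (log2 fold change -0.92, SE 0.27, limma adjusted p = 0.842). It shares sequence with Orm1 and Orm2, so its assigned level is uncertain. Serpina6, the carrier of glucocorticoids, was at 72.5, 101, 99.5, 225 and 202 against 241, 238, 195 and 413, with apoC-III ASO livers 1 to 3 below all others (log2 fold change -1.03, SE 0.36, adjusted p = 0.860, and -0.64 on deposited TPM). Fetub, a fetuin that inhibits metalloproteases, was the remaining gene and was named after its values were seen, at 415, 329, 341, 324 and 267 against 459, 510, 406 and 1153 (log2 fold change -0.79, SE 0.30, adjusted p = 0.871). Serpina7, the thyroxine-binding globulin that shares its ligand with Ttr, was also chosen after its values were seen, at 23.1, 21.96, 25.04, 5.79 and 0.841 against 5.01, 7.60, 14.3 and 19.3. Its apoC-III ASO livers 1 to 3 lay above and liver 5 below all controls, and the estimate for the gene as a whole was -0.00116 on the log2 scale (SE 0.73, limma adjusted p = 0.999).

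Genes that handle the ligands of these carriers (retinol, vitamin D, vitamin E, thyroid hormone and albumin recycling) gave 0 calls among 17 tested of 21 listed, with 6 log2 fold changes above 0, 11 below and a median of -0.12 (0.18 on deposited TPM). Lrat, which esterifies retinol for storage, was at 1.14, 1.41, 0.977, 1.596 and 1.63 scaled TPM against 3.54, 2.72, 2.29 and 5.28. The groups did not overlap, and the log2 fold change was -0.89 (SE 0.26, limma adjusted p = 0.842). Lrat is a gene of stellate cells, and of 6 stellate cell markers 5 had log2 fold changes below 0 (median -0.21, but 0.25 with the protein-coding share alone), among them Dcn, a matrix proteoglycan (-0.57, SE 0.24, adjusted p = 0.876), and Col1a1, a collagen chain (-0.75, SE 0.36, adjusted p = 0.883), while the sum of the 6 was 125 to 160 scaled TPM against 148 to 262. Control ASO liver 4 held the highest stellate sum, the other controls lying between 148 and 186, and without it the log2 fold change of Dcn was -0.36 and that of Col1a1 -0.36. The part of these cells in the Lrat values was not tested. Thra, a thyroid hormone receptor, was at 5.84, 9.45, 7.61, 8.04 and 12.2 against 3.77, 3.85, 4.64 and 7.50 (log2 fold change 0.70, SE 0.26, adjusted p = 0.860). Stra6, the cell surface receptor for Rbp4, is listed at 0 in all 9 livers. Stra6l, another Rbp4 receptor that is known from liver and was named after its values were seen, was at 14.9 to 81.7 scaled TPM with the apoC-III ASO and at 16.9 to 46.4 with the control ASO (log2 fold change 0.23, SE 0.48, adjusted p = 0.980).

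The partners of bikunin in the inter-alpha-inhibitor complex gave 5 tested of 6 listed and 0 calls, 2 with log2 fold changes above 0 and 3 below (median -0.03, but 0.45 on deposited TPM). The heavy chain Itih3 was at 1020, 1007, 1107, 385 and 428 scaled TPM in the apoC-III ASO livers against 575, 539, 550 and 468, with livers 1 to 3 above and livers 4 and 5 below all controls (log2 fold change 0.43, SE 0.34, limma adjusted p = 0.917). Itih1 was at 293, 256, 299, 190 and 131 against 198, 157, 169 and 146 (log2 fold change 0.43, SE 0.27, adjusted p = 0.900). Ambp did not share this order of livers, being high in apoC-III ASO livers 1, 4 and 5.

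Transcription factors known to act on the albumin-family promoters were all tested, 15 of 15, with 0 called, 8 log2 fold changes above 0, 7 below and a median of 0.00036. Dbp, a D-box factor named for binding the albumin promoter, was at 2.92, 22.2, 2.70, 152 and 97.7 scaled TPM with the apoC-III ASO and at 103, 78.1, 100 and 68.2 with the control ASO. Its apoC-III ASO livers 1 to 3 lay below and liver 4 above all controls (log2 fold change -1.99, SE 1.01, limma adjusted p = 0.883). The estimate was -0.93 on deposited TPM and -0.94 with median-of-ratios factors over all genes, and -2.69 to -1.35 with a liver left out. Nfil3, a repressor at D-box sites, was at 11.3, 10.7, 17.4, 5.71 and 8.68 against 3.31, 5.13, 4.38 and 6.69 (log2 fold change 0.96, SE 0.30, adjusted p = 0.860). Alb was highest in apoC-III ASO liver 1 and low in livers 2 and 3, in all of which Dbp was low. In apoC-III ASO liver 4, where Dbp was at 152, Alb was also low at 16694 scaled TPM. The relation of Dbp to Alb was not tested.

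Markers of the other liver cell types gave 0 calls. The sums were 87.9 to 133 scaled TPM against 79.4 to 122 for 6 endothelial genes (4 log2 fold changes above 0, 2 below), 62.7 to 91.5 against 61.8 to 104 for 6 macrophage genes (2 above, 3 below, 1 untested), and 45.2 to 94.9998 against 49.3 to 125 for 7 cholangiocyte genes (2 above, 2 below, 3 untested). Of 6 lymphocyte genes 0 passed the filter, and their sums were 1.87 to 3.87 against 1.21 to 6.47. Red cell genes differed most between livers, with sums of 49.8 to 948 against 62.0 to 2183 (1 above, 4 below, 1 untested). The 2 genes with the smallest p in each list were Lyve1 (log2 fold change 0.52) and Clec4g (0.50) for endothelium, Cd5l (0.14) and Clec4f (-0.18) for macrophages, Sox9 (0.47) and Krt19 (-0.36) for cholangiocytes, and the near-identical alpha-globin genes Hba-a2 (-1.98) and Hba-a1 (-0.64) for red cells. Without control ASO liver 4 these 2 were at -0.97 and 0.45, and Clec4g at 0.23.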

How the data were processed

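RNA sequencing (ribo-depleted, stranded, single-end) had been done on 9 livers, 5 apoC-III ASO and 4 control ASO. The unit of the values deposited by the authors is TPM, and the submitters' processing notes name kallisto 0.43.1 and GRCm38. Counts from STAR and featureCounts, named in the paper's methods, were not used here. TPM keeps no depth, so no counting interval could be given. Because 7SL RNA dominated the deposited TPM, protein-coding nuclear genes (GENCODE M21) were rescaled to 1000000 per liver and divided by median-of-ratios factors (scaled TPM). Genes with a mean of at least 1 were tested with limma 3.58.1 (R 4.3.3; trended eBayes) on log2(scaled TPM + 1), so fold changes of low genes are understated, with Benjamini-Hochberg adjustment over all of them. Thresholds for a call were 0.05 for the adjusted p and 1.5 for the fold change. Ratios, shares and correlations were tested by exact two-sided permutation, enumerated in Python 3.11.15 with numpy 2.4.6. Ranks for Spearman's rho came from scipy 1.17.1. The scripts were checked on simulated data. The members and gene lists were chosen with earlier results of these data known. The text names the members, Apoc3, the 2 genes with the smallest p in each other list, and the 3 genes most like each member, of which 1 is not reported here. Alternatives covered scaling, pseudocount, filter, variance model, replicate block and each liver left out. Promoter sequences and motif counts came from RefSeq (GRCm38.p6).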

Additional observations from a re-analysis of the deposited data

Results flagged for a closer look

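Within groups of 4 or 5 livers, 74 sets of values of the named genes were examined for a single liver far from the others. Such a liver was found in 13. For independent, normally distributed values, chance flags about 1 in 20 groups. The values here were not logged, and the sets share livers and scaling, so their own chance rate is not known. Control ASO liver 4 accounted for 6 of the 13. In that liver Afp was at 0 scaled TPM, against 0.617 to 0.740 in the other controls, and the 7 carriers summed to 1.87% of protein-coding TPM, against 3.37 to 3.44%. It also held the highest control values of Cd24a (4.02 scaled TPM, others 1.28 to 1.64), Igf2 (11.1, others 0.476 to 0.569), Hba-a1 (329, others 5.47 to 49.1) and Hba-a2 (162, others 6.58 to 9.75).

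ApoC-III ASO liver 1 had a summed carrier share of 7.04%, against 2.93 to 3.70% in the other apoC-III ASO livers. ApoC-III ASO liver 4 was high in Hba-a1 (166 scaled TPM, others 7.24 to 31.0) and Hba-a2 (27.5, others 0 to 6.25). ApoC-III ASO liver 5 was high in Dcn (102, others 70.0 to 74.7) and Krt19 (4.35, others 0 to 1.22), and apoC-III ASO liver 3 in Sox9 (4.54, others 1.45 to 2.16). Cps1 in control ASO liver 3 was low at 975 scaled TPM, against 1117 to 1144 in the other controls.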

How the results depend on the processing

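No carrier was called under any of 21 alternative fits over all genes, and the lowest adjusted p of a carrier in them was 0.460 (limma). Several estimates near 0 changed sign. On deposited TPM, where the median of all genes was 0.11, the log2 fold changes were 0.19 for Alb, 0.15 for Afm, 0.0944 for Gc and 0.31 for Rbp4, with Apoa1 at 0.00234 and Cps1 at 0.0295. Relative to that median Alb stood at 0.08 and Gc at -0.0141. With the protein-coding share alone, median 0.41, they were 0.33, 0.37, 0.24 and 0.47, with Apoa1 at 0.14, Clec4f at 0.27 and Cps1 at 0.18. Relative to the median Alb stood at -0.08 and Gc at -0.17. With quantile normalization they were 0.54 for Alb, 0.0712 for Gc, 0.29 for Rbp4 and 0.00926 for Cps1. With array weights Ttr was at -0.0314 and Ambp at -0.0106, and Afm was at 0.0426 with the replicate block. The cause of these changes was not tested. Apoc3 was -2.62 on deposited TPM (adjusted p = 0.104, range over all its alternatives 7.74e-05 to 0.104). Leaving out each liver in turn gave -0.37 to -0.0357 for Alb, 0.00536 to 0.30 for Ambp, -0.21 to 0.0492 for Afm, -0.17 to 0.13 for Ttr, -0.13 to 0.13 for Rbp4, -0.49 to 0.0287 for Clec4f and -1.45 to 0.45 for Hba-a1, the last above 0 without control ASO liver 4. The log2 differences in ratio to Alb then ran from -0.12 to 0.29 for Afm, -0.23 to 0.15 for Gc, -0.0172 to 0.33 for Ttr and -0.0696 to 0.29 for Rbp4, and Alb against the hepatocyte genes from -0.16 to 0.20. Among all genes, the calls were 5 higher and 6 lower on deposited TPM, 1 higher with median-of-ratios over all genes and 1 with the replicate block, 1 lower with median-of-ratios over all genes, with the protein-coding share alone, without a filter and without the trend, and 0 to 1 higher and 1 to 3 lower with a liver left out, the count being 1 without apoC-III ASO liver 1, 2, 3 or 4 or without control ASO liver 1 or 3. Anpep lost its call in 13 of the 21 fits, 7 of them with a liver left out, and Apoc3 in 1 (adjusted p of Anpep 0.0190 to 0.433). Without the 2 farthest livers r of Alb and Ttr was -0.14. Same-numbered livers of the groups correlated at 0.0673, 0.119, 0.0280 and 0.190 in their deviations. All pairs of livers across the groups ran from -0.21 to 0.19. These values cannot decide whether the numbers paired the mice, since the highest pair was itself a same-numbered one. With the replicate block 1 gene was called higher and 2 lower. Of 6 planned ratios to Alb, that of Afp could not be computed. Depth, unknown from TPM, limits what can be said of Afp.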
